A study of Mus musculus with 6 samples.

Results

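Fam91a1, Cab39l, Abcc1, Fam135a, Arnt and Bin2 each held, inside the gene, a site with YBX1 tags above a low input in at least 2 of 3 immunoprecipitates. They were 6 of the 21779 protein-coding genes of the mouse annotation. The genes were selected on these peaks, that is on position, fold and local input in at least 2 of the 3 deposited lists, so their peak values are given as a description and without a test. All peaks inside a gene or within 1 kb of its ends were taken, which gave 19 peaks in 8 regions, a region being the peaks of the lists that overlapped by at least 1 bp. Of the 8 regions 4 had peaks of all 3 lists, 3 had peaks of 2 lists and 1 had a peak of 1 list.

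The data were chromatin immunoprecipitation followed by sequencing from untreated BaF3 cells, a mouse line of pro-B cell origin with JAK2 V617F, the activated form of the kinase found in myeloproliferative neoplasms. All libraries came from this single cell background: 3 immunoprecipitates with a YBX1 antibody and 3 inputs without antibody, 6 libraries in all. No library from cells without JAK2 V617F, with a control antibody or without YBX1 was used here. Each immunoprecipitate had been compared with 1 input by the authors' peak caller, and the resulting lists are named list 1, list 2 and list 3 by the number the tables carry. Tags kept by the caller numbered 67.0 M to 69.7 M for the immunoprecipitates. Input 1 was deeper, with 87.6 M, than inputs 2 and 3, with 70.4 M and 67.0 M. Separate cultures are not stated in the labels, so the spread between lists may be technical.

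YBX1 is a cold shock domain protein that binds DNA and RNA. It takes its name from the Y-box, an inverted CCAAT element of promoters, and it also acts on RNA in splicing, translation and messenger stability. The genes are described one by one, as the list was drawn from peaks and not from a pathway. The product of Fam91a1 works with TBC1D23 in the capture of endosome-derived vesicles at the trans-Golgi. Cab39l encodes a scaffold of the MO25 family, which activates the kinase LKB1 together with the STRAD pseudokinases. Abcc1 encodes MRP1, an efflux transporter of glutathione conjugates, leukotriene C4 and many drugs. Arnt encodes the bHLH-PAS partner of the hypoxia-inducible factors and of the aryl hydrocarbon receptor. Bin2 encodes a membrane-bending BAR domain protein of blood cells. Fam135a is named without a role here.

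The starts of transcription were listed in RefSeq promoter windows on GRCm38.p6 for 3 of the 6 genes, Cab39l, Fam135a and Arnt. No peak of any list lay in these windows. The share of all promoter windows with a peak is not given here, and the genes were chosen for regions inside their spans. The absence of peaks is therefore no finding about these promoters. The windows run from 250 bases before a start to 50 after it. They were searched for the CCAAT pentamer on both strands, as CCAAT or ATTGG, because YBX1 is named for that element. A match was present in 38.2% of 21230 such windows of protein-coding genes, so that a match is common. The window at the first listed start of Cab39l had 2 matches and that of Arnt had 1, while the windows of Fam135a and of the second start of Cab39l had 0. The 250 bases before the start are shown for the 2 windows with a match, to set the letters of the element against the place of the peaks; capitals mark the matches, and both are on the plus strand. The first is chr14:59440713-59440962 and the second chr3:95434140-95434389. The sequence under the peaks themselves was not analysed here.
Cab39l: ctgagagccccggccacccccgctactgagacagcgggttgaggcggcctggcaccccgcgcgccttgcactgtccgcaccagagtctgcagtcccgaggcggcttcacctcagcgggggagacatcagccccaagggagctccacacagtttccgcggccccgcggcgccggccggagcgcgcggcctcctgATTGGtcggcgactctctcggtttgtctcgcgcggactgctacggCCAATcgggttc
Arnt: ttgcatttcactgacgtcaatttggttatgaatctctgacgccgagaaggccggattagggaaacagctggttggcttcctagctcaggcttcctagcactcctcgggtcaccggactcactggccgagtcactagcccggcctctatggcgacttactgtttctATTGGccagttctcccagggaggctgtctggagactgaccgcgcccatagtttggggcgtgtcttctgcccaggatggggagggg

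Where the peaks lay within the genes was read from the gene spans of GRCm38.p6: Fam91a1 at chr15:58405907-58457801, Cab39l at chr14:59440934-59548904, Abcc1 at chr16:14361453-14474878, Fam135a at chr1:24010758-24100484, Arnt at chr3:95434367-95497240 and Bin2 at chr15:100641082-100669503. All 8 regions lay wholly inside their gene, and 0 of the 8 had its mean summit within 1 kb of an end of the span. The spans ran from 28.4 kb in Bin2 to 113.4 kb in Abcc1, against a median of 17.2 kb for all protein-coding genes. The genes were chosen for a region inside the span, which a longer span has more room for, so this is no separate finding. In Cab39l the mean summit was 4.91 kb downstream of the first listed start, the shortest such distance of the 3 genes with a start. The span of Cab39l begins 54 bp past that of Setdb2, a gene of the histone methyltransferase family transcribed in the opposite direction, and the span of Gm45935 ends at the same base as Setdb2. The nearest summit was 4.98 kb from that end. In Fam135a the region was 11.1 kb downstream of the start, and in Arnt the regions were 37.5 kb and 38.1 kb downstream. In Fam91a1, the 2 regions were 19.2 kb and 17.7 kb from the nearer end of the span. In Abcc1 the region was 33.1 kb from the nearer end, and in Bin2 6.23 kb. Within Bin2, the nearest summit was 1.85 kb from Mir6961, a microRNA gene inside the span. The spans of the pseudogenes Gm23116 in Abcc1 and Gm30756 in Fam135a were 58.9 kb and 16.4 kb from the nearest summit. Exon and intron positions were not analysed here.

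**Figure D1:**
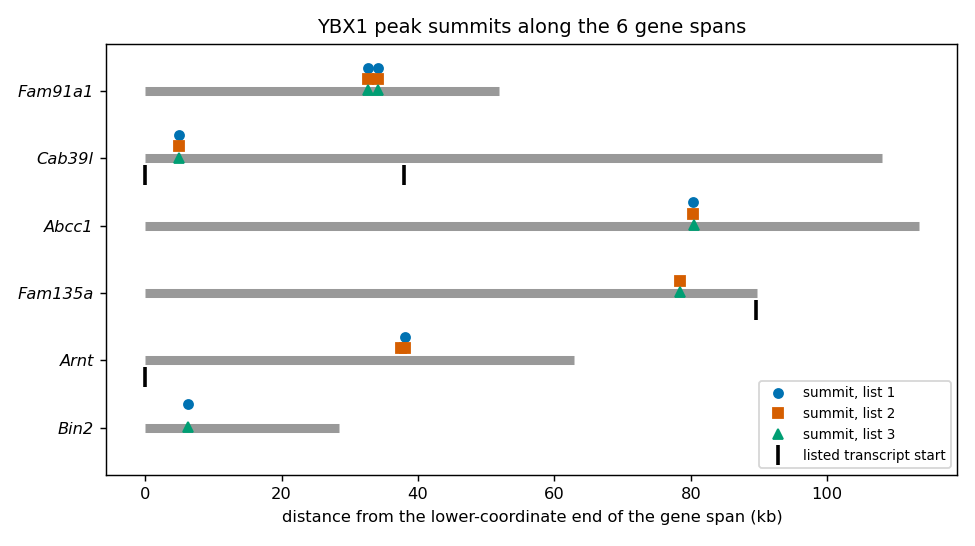
Position of each peak summit along the spans of the 6 genes, in kb from the end with the lower coordinate; symbols mark the list, and black ticks the transcript starts listed for Cab39l, Fam135a and Arnt. The summits of the different lists lie on top of one another at this scale, and none is at a listed start.

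The genes held no further peaks. Outside these regions, the nearest peak of any list was 36.9 kb from the end of Arnt, 78.4 kb from Bin2, 95.03 kb from Abcc1, 135.2 kb from Cab39l, 155.6 kb from Fam91a1 and 621.4 kb from Fam135a. Each of the 19 peaks was also single in its list: 0 had the length, summit offset, pileup and fold of another peak. The peaks of the other genes most like the 6, described below, were single too, so this does not set the 6 apart. The share of single peaks over all peaks is not given here. The peaks covered between 0.235% of the span in Cab39l and 3.26% in Fam91a1.

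The signal at each site was read from its pileup, fold and local input. The pileup is the number of tags, each extended to 160 bp, over the summit after the larger library was scaled down, and the fold is the ratio of pileup to local input after adding 1 to both. The local input level was recovered from these values and divided by the level a uniform spread of tags over the genome would give, called the genome-wide level here. A peak counted as low-background below 5 times that level. Dividing out the scaling gave whole tags, to within 0.02 tags, for the immunoprecipitate at all 19 peaks. Only in list 3 was the immunoprecipitate scaled, so in lists 1 and 2 this could not have come out otherwise. The input gave whole tags, within the same 0.02, at all 13 peaks whose local level was above the genome-wide one. For the other 6 peaks the caller had used the genome-wide level, which allows at most 5 input tags in list 1 and at most 4 in lists 2 and 3. Intervals on tags below are exact 95% Poisson intervals and cover counting error only. A summit is the highest point of its peak, so its tags are the top of a local range.

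Fam91a1 had the most tags. In region 1, chr15:58438456-58439543, the 3 lists had 84, 105 and 105 tags, or 98.0 ± 12.1 (SD, n = 3). The input had 29, 20 and 13 tags there, which is 5.49, 4.71 and 3.22 times the genome-wide level. The tags of the immunoprecipitates differed by up to 1.25 times between lists and the input levels relative to the genome-wide level, which correct for depth, by up to 1.71 times. The folds were 3.67, 5.20 and 7.28, 1.99 times apart at most, with a mean of 5.38 ± 1.81 (SD, n = 3). The value of 5.49 in list 1 was the only one of the 19 peaks above the limit of 5, so region 1 was low-background in 2 of its 3 lists.

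Region 2 of Fam91a1, chr15:58439853-58440457, began 309 bp past the end of region 1, with the mean summits 1482 bp apart. It had 40, 56 and 46 tags, or 47.3 ± 8.08 (SD, n = 3). The input had 14, 12 and 5 tags, or 2.65, 2.82 and 1.24 times the genome-wide level. In each list region 2 had fewer tags than region 1, and in each list its input was lower too. The folds were 3.50, 4.51 and 7.53. At both regions the fold was highest and the input lowest in list 3.

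Cab39l had the most even tags of the regions with peaks of all 3 lists, 1.05 times apart at most. The region at chr14:59445760-59446013 had 83, 83 and 87 tags, or 84.3 ± 2.31 (SD, n = 3). The inputs had 22, 20 and 17 tags. The folds were 4.71, 4.12 and 4.70, or 4.51 ± 0.338 (SD, n = 3). The 3 summits fell within 11 bp. Input at this site was raised in all 3 libraries, to 4.16, 4.71 and 4.21 times the genome-wide level. Within each list Fam91a1 region 1 had more tags than Cab39l: 84 against 83, 105 against 83 and 105 against 87 in lists 1, 2 and 3. The 95% Poisson intervals of the 2 sites overlapped in each list. Their order was not tested and is not settled. Both stood above every other site of the 6 genes. Of the low-background peaks in the 6 genes, those of list 2 in Cab39l and in Fam91a1 region 1, both at 4.71, were closest to the limit.

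Abcc1 had the fewest tags in a list and the least even ones, 3.00 times apart. In the region at chr16:14441718-14441989 list 1 had 16 tags (interval 9.15 to 26.0) and list 2 had 17 (9.90 to 27.2), both over input at the genome-wide level. List 3 had 48 tags (35.4 to 63.6), over 16 input tags or 3.96 times the genome-wide level. The interval of list 3 did not overlap those of lists 1 and 2, but the difference was not tested. Input in list 3 was above the 5 and 4 tags that the inputs of lists 1 and 2 could hold at most. The folds were 3.37, 3.52 and 2.77, or 3.22 ± 0.394 (SD, n = 3). In lists 1 and 2 the fold was taken against the genome-wide level and not against a count of input tags. Their closeness is therefore not a measure of agreement between lists. Both 16 tags in list 1 and 17 in list 2 were the lowest numbers called at genome-wide input in their lists. The summits spread over 111 bp, the widest of the 8 regions.

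**Figure D2:**
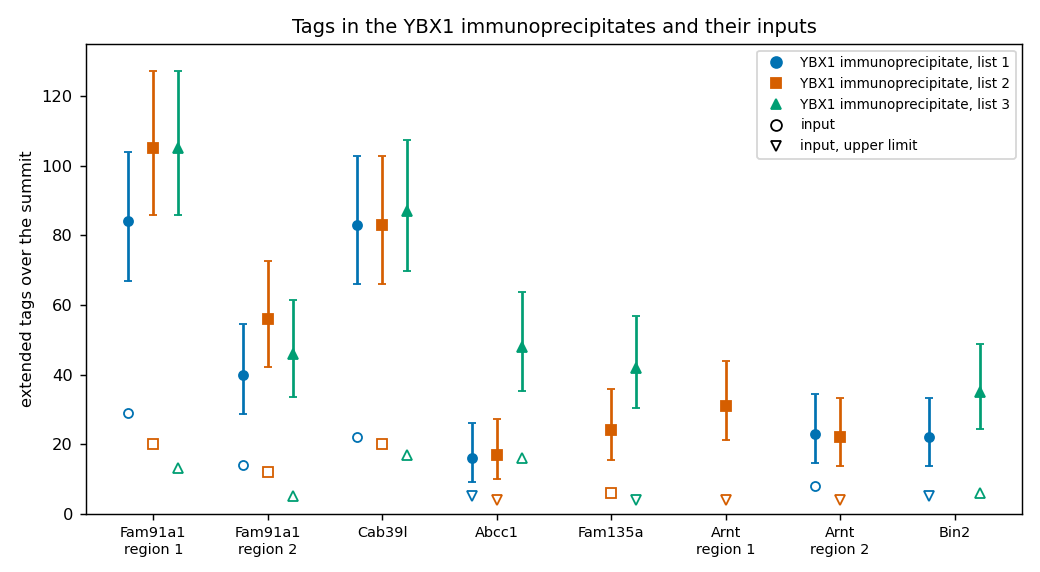
Extended tags over the summit of each region in the YBX1 immunoprecipitates (filled, with exact 95% Poisson intervals) and in their inputs (open; downward triangles are upper limits where the caller used the genome-wide level), before scaling. Cab39l sits at 83 to 87 tags in every list, while Abcc1 has 16, 17 and 48. Input 1 was the deepest library, with 87.6 M tags.

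Fam135a, Arnt and Bin2 had their regions in 2 lists each. In Fam135a, at chr1:24088686-24089719, list 2 had 24 tags (15.4 to 35.7) over 6 input tags, and list 3 had 42 (30.3 to 56.8) over input at the genome-wide level. The folds were 3.67 and 8.20. The fold of 8.20 was the highest of all 2827 peaks in list 3. The intervals of the tags overlapped, and the difference between the 2 lists was not tested. List 1 had no peak there.

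Arnt had its shared region at chr3:95472224-95472641, with 23 tags in list 1 over 8 input tags and 22 tags in list 2 over input at the genome-wide level. The folds were 3.37 and 4.49. A further peak, region 1 at chr3:95471764-95471969, was found in list 2 alone, with 31 tags over genome-wide input and a fold of 6.25. It ended 254 bp before the shared region. Arnt and Fam91a1 were the genes of the 6 with a pair of regions, 254 bp and 309 bp apart. List 3 had no peak in Arnt.

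Bin2 had its region at chr15:100647189-100647485, with 22 tags (13.8 to 33.3) in list 1 over genome-wide input and 35 (24.4 to 48.7) in list 3 over 6 input tags. The folds were 4.56 and 4.95, the closest pair among the 3 genes with peaks of 2 lists. In list 1 the fold was taken against the genome-wide level, so the closeness of the folds is not a measure of agreement. The tags were 1.59 times apart. The summits were 6 bp apart. List 2 had no peak there. A missing peak is not a value of 0: at genome-wide input the lowest numbers of tags called were 16, 17 and 17 in lists 1, 2 and 3, and nothing below the threshold is in the lists.

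The peaks in the 6 genes were weak in tags and high in fold beside the rest of their lists. Their pileups ran from 16 to 105, and the highest percentile of any in its list was 16.1, where the medians were 212, 191 and 184.5. Their folds ran from 2.77 to 8.20, and the lowest percentile was 94.7, where the medians were 1.78, 1.75 and 1.80. The median local input of the lists was 28.2, 26.4 and 25.2 times the genome-wide level, against 1.00 to 5.49 times at the 19 peaks. These positions in the lists follow the choice of low-background peaks and are no separate finding. The deposited −log10 q values spread from 3.12 for Abcc1 in list 1 to 43.6 for Fam91a1 region 1 in list 3, which was the highest of that list.

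**Figure D3:**
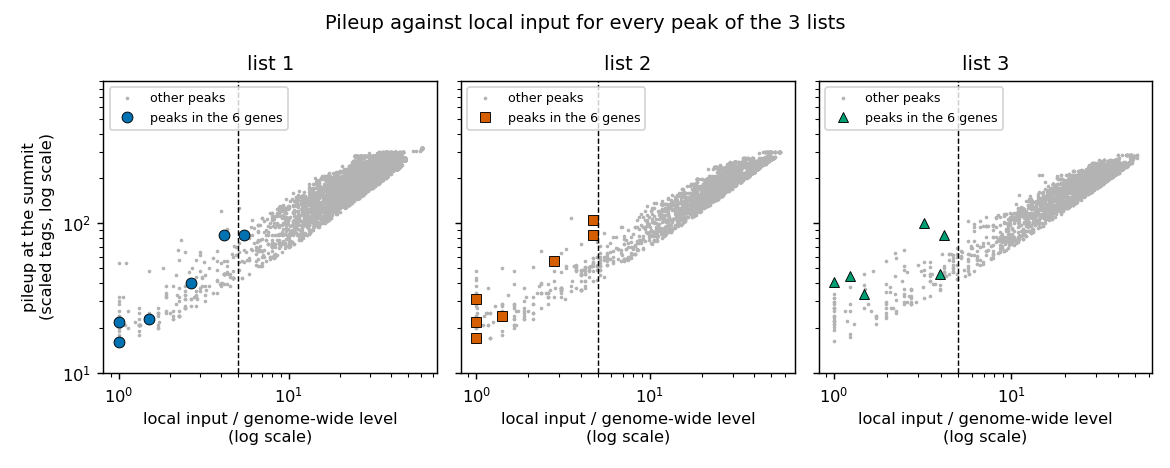
Pileup at the summit against local input relative to the genome-wide level, both on log scales, for every peak of lists 1, 2 and 3 (grey) and the peaks in the 6 genes (coloured); the dashed line marks 5 times the genome-wide level. The coloured points lie at the low end of both axes, with 1 point, Fam91a1 region 1 in list 1, at 5.49 and past the line.

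Peak length, which the choice of genes did not use directly, varied widely among the 6 genes. In Fam135a the peaks were 942 and 1034 bp long, the 4th and 3rd longest of lists 2 and 3. In Fam91a1 region 1 they were 570, 609 and 1053 bp, the last being the 2nd longest of list 3. Region 2 of Fam91a1 was 605 bp in list 2, but 169 and 175 bp in lists 1 and 3. In Cab39l, Abcc1 and Bin2 the peaks were between 201 and 282 bp, close to the list medians of 255, 264.5 and 266 bp. The low-background peaks of the lists had median lengths of 210.5, 207 and 215 bp. Peaks of at least 900 bp, chosen as a limit once the lengths were known, numbered 9, 4 and 5 in lists 1, 2 and 3. In list 2, 2 of these were low-background and 1 was in Fam135a. In list 3, 2 were low-background, those in Fam135a and Fam91a1.

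**Figure D4:**
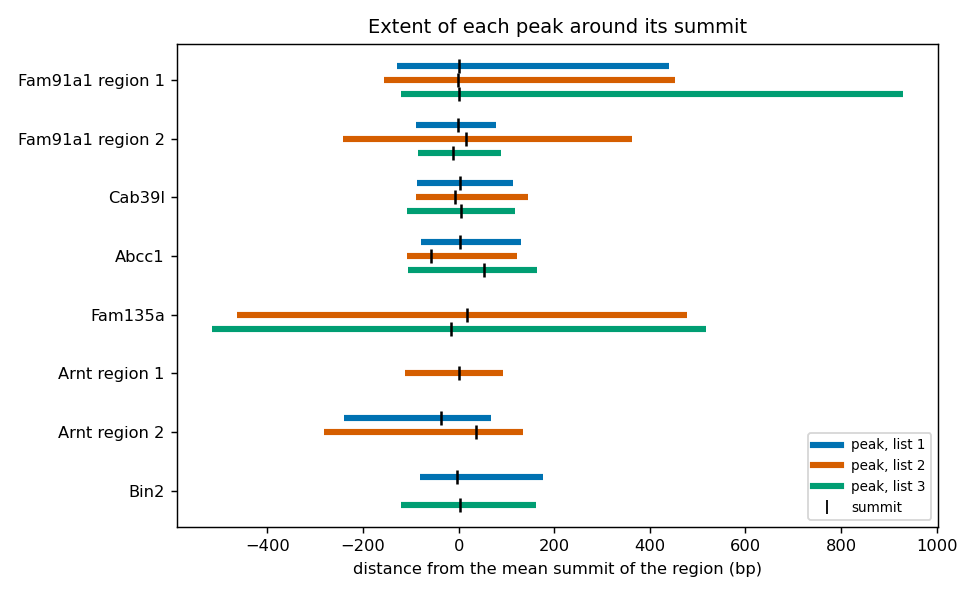
Extent of each peak in bp from the mean summit of its region, coloured by list, with the summit as a black tick. The list 3 peaks of Fam135a and Fam91a1 region 1 are 1034 and 1053 bp long, while those of Cab39l, Abcc1 and Bin2 are at most 282 bp long in every list that has them.

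The summits of the lists spanned 4 to 111 bp over the 7 shared regions of the 6 genes, whose peaks overlap by definition. They spanned 4 bp in Fam91a1 region 1, 27 bp in region 2, 34 bp in Fam135a and 72 bp in the shared region of Arnt. The median over the 7 shared regions of the 6 genes was 27 bp, over all 40 shared low-background regions 11 bp, and over all 3048 shared regions 4 bp. Of the 40 low-background regions, 9 (22.5%) had peaks of all 3 lists, beside 1291 (42.4%) of all 3048 shared regions. Of those 9, 4 were in Fam91a1, Cab39l and Abcc1. The 6 genes were chosen on peaks in at least 2 lists, so this count is no separate finding.

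The 6 genes were set beside the other genes with such a region. A peak of any list lay in the span plus 1 kb of 4.94% of protein-coding genes. A shared region, low-background or not, lay in the span plus 1 kb of 2.52% of protein-coding genes, and a shared low-background region in that of 14 genes, or 0.0643%. All of the 6 genes had one, as they were chosen to. Ranked by the lowest fold among the low-background peaks of the region, Fam91a1 was first of the 14, Bin2 the second, Cab39l the fifth, Fam135a the sixth, Arnt 9th and Abcc1 12th. First place for Fam91a1 rests on leaving out its list 1 peak, which was above the input limit and had a fold of 3.67: by the lowest fold of all peaks of the same regions it was 6 of 14, behind Bin2, D5Ertd579e, Gm32584, Cab39l and Fam135a. The 6 were therefore not the 6 highest by this measure. D5Ertd579e and Gm32584, whose spans overlap and share 1 region on chromosome 5, had folds of 4.51 and 5.14 in lists 1 and 2. The other genes most like the 6 by the same ranking were Gm3411, with 3.54 and 3.63 in lists 1 and 3, Diaph3, with 3.52 and 4.58 in lists 2 and 3, and Vmn2r44, with 4.30 and 3.23 in lists 2 and 3. Diaph3 encodes a formin that nucleates actin filaments and Vmn2r44 a vomeronasal receptor. Each of these 5 genes had its region in 2 lists.

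Partners and paralogues of the 6 genes were searched for peaks as well. Of 69 related genes, 6 had a shared region, or 8.70%, beside the 2.52% of all protein-coding genes. The number fell to 1 without list 1, to 2 without list 2 and to 3 at a −log10 q of at least 5, so it depends on which lists and peaks are counted. The shares were also not matched for the length of the gene spans, so their gap is not read as a difference. A shared low-background region lay in 0 of the 69, beside a share of 0.0643% over all genes, at which 69 genes are too few to show a difference. The 6 related genes with a shared region were Tbc1d23, the partner of Fam91a1, Fam135b, the paralogue of Fam135a, and Clock, a bHLH-PAS relative of Arnt. The others were Amph, Sh3gl2 and Sh3gl3, BAR domain relatives of Bin2. Among the 16 genes related to Cab39l, which cover LKB1, STRAD, AMPK and the MO25-bound kinases, 0 had a peak, and among the 13 ABC transporters related to Abcc1 0 did. With a peak in 4.94% of all protein-coding genes, these numbers do not set the families apart. Some peaks at Tbc1d23, Clock and Amph had the length, summit offset, pileup and fold of another peak of their list. The 20 peaks at the 6 related genes had folds between 1.30 and 2.45, pileups between 109 and 300, and local input between 12.5 and 55.8 times the genome-wide level. The medians of the 3 lists, given above, lie within these ranges. The 19 peaks lie outside them because low local input was a condition of their choice, so the gap is no finding about the related genes.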

How the data were processed

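YBX1 immunoprecipitates and inputs, 3 of each, were grouped by their titles. The build was GRCm38 and reads had been trimmed with Trim Galore, per the submitters' processing notes. An aligner is not given in the sources used here. Peaks were called per immunoprecipitate with MACS 2.1.1.20160309 (no model, extension 160 bp, q 0.01, 1 tag kept per position and strand), per the file headers. The pileup is a signal of scaled tags, the fold a ratio to local input, and the −log10 p and q values the caller's output, all as deposited by the authors. Which of the labelled libraries each list number stands for was taken from the numbers in the tables' names. The file headers name the alignments by other numbers, which the labels do not use, so this link is not certain.

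Local input was solved from fold and pileup, and divided by kept tags times extension over a genome size of 2652783500. Gene spans are those of RefSeq on GRCm38.p6, without entries starting below 3 Mb on chromosomes other than Y. Besides the 6 genes, the text names up to 5 other genes ranked by the lowest low-background fold and all related genes with a peak. Members and lists were chosen with earlier results of these data known, and no test was run. The steps were tested on simulated data (Python 3.11.15, pandas 2.3.3, scipy 1.17.1). The alternatives tried were peaks overlapping by 50% of the shorter one, −log10 q of at least 5, the span alone or plus 5 kb, limits of 3 and 10 times the genome-wide level, and leaving out each list.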

Additional observations from a re-analysis of the deposited data

How the results depend on the processing

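All 6 genes kept a shared low-background region with an overlap of 50%, with the span alone or plus 5 kb, and with a limit of 10 times the genome-wide level. At a limit of 3 times, 5 genes kept one, without Cab39l, which then had a low-background peak in 0 lists. At a −log10 q of at least 5, 4 genes kept one, without Abcc1 and Arnt. Without list 1, Arnt and Bin2 lost theirs, without list 2 Fam135a and Arnt, and without list 3 Fam135a and Bin2, which follows from needing both remaining lists. The 7 shared low-background regions of the 6 genes numbered 4 to 5 when a list was left out, and the 7 shared regions 5 each time. The share of protein-coding genes with a shared low-background region, 0.0643%, became 0.0321% at a −log10 q of at least 5 and 0.147% at a limit of 10 times, and 0.0230% to 0.0367% when a list was left out. Of the related genes, 6 had a shared region, 3 at a −log10 q of at least 5, and 1 to 5 when a list was left out, with 1 left without list 1 and 2 without list 2. In each list 1 immunoprecipitate was compared with 1 input, and the labels do not state that both came from the same chromatin. No paired analysis was possible because the sites were selected on that same contrast, so that a test of it would not be valid. The counts above come from no test. The tags of the immunoprecipitate and of the input are given in the report as a description.

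With 16 and 17 tags, Abcc1 in lists 1 and 2 was at the lowest tag number called there at genome-wide input. No peak with fewer tags at genome-wide input was in these lists. Whether a site with fewer tags would have been called was not tested.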
